A study of Rattus norvegicus with 10 samples.

Results

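The dorsal and the ventral striatum of the rat were compared, as the caudate putamen (CPU) against the nucleus accumbens (NA), on 4 of the 10 arrays of a study of cocaine. The arrays were chosen by their labels alone, with 1 array of rats given cocaine and 1 of rats given saline in each region. The other 6 arrays held amygdala (AMY), prefrontal cortex (PFC) and ventral tegmental area (VTA) and serve here only to place the striatal levels. The labels used here do not state rat strain, age, sex, dose, length of treatment or how many animals an array stands for. Each region had a lone array per treatment, and nothing says that the arrays came from separate animals, so the p-values reflect only how these 4 samples vary, which may be technical. Every difference below is log2 of the expression index in CPU minus that in NA, from a limma fit with region and treatment as terms, and its error is the standard error of that fit.

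The striatum is the main input nucleus of the basal ganglia, and nearly all of its neurons are GABA-releasing spiny projection neurons that receive cortical glutamate and midbrain dopamine. Those of the direct pathway carry the dopamine receptor D1 and substance P, and those of the indirect pathway carry the dopamine receptor D2, the adenosine A2a receptor and enkephalin. The dorsal part is tied to movement and habit, and the accumbens to motivation and reward. Both parts hold the same main cell classes, with known gradients such as more of the cannabinoid receptor CB1 dorsally and more of the peptide CART ventrally.

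Of 8740 probe sets that are not controls, 5219 were measured on all 4 arrays and lay in the upper 60% by mean index. Of these, 705 passed an adjusted p of 0.05 (limma, Benjamini-Hochberg), which is 13.5% of those tested, with 244 higher in CPU (4.68%) and 461 higher in NA (8.83%). Most differences were small, with a median size of 0.36 on the log2 scale, and 123 of the 705 reached 1.5-fold, 42 of them higher in CPU and 81 higher in NA. Only 9 probe sets at least 2-fold higher in CPU and 15 at least 2-fold higher in NA were among the 705. The number rested on which arrays gave the spread: in a fit of all 10 arrays, 46 passed, 20 higher in CPU and 26 higher in NA, all 46 among the 705 and in the same direction. The same 10 arrays with array weights, an alternative added after seeing the data, gave 476 calls, 157 higher in CPU and 319 higher in NA. The fit of 4 arrays has 1 residual degree of freedom, so its standard errors come mostly from the spread shared by probe sets of like intensity and lay near 0.08 for most of them. Without any filter on low values none passed in limma, although 1112 probe sets had an unadjusted p under 0.05, and with both filter and floor dropped 680 passed.

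Over all tested probe sets, 67.4% had the same sign of difference between the cocaine arrays as between the saline arrays, and the values of the regions did not overlap in 54.4%. Among the 705 called probe sets these were 704 and 697, which the test largely fixes, since it rests on the same pair differences. A count that needs no spread, of probe sets at least 1.5-fold apart in the same direction in both treatments, gave 94 of 8689 (1.08%), 33 higher in CPU (0.38%) and 61 higher in NA (0.702%). On the log2 scale the SD of the difference between arrays was 0.13 between the CPU arrays and 0.15 between the NA arrays, against 0.21 between the regions with cocaine and 0.26 with saline.

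**Figure D1:**
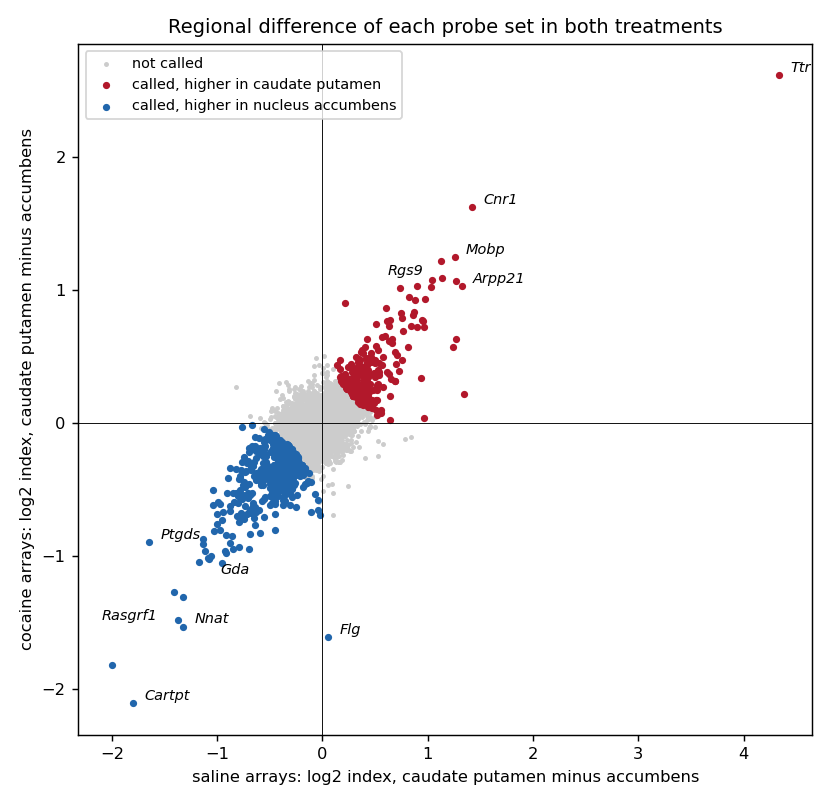
Each point is 1 of the 5219 tested probe sets, with the log2 difference between CPU and NA on the saline arrays across and on the cocaine arrays upward; called probe sets are red where higher in CPU and blue where higher in NA. Cartpt and Cnr1 sit near the diagonal, Ttr is farther from zero on the saline arrays, and Flg is the called probe set with opposite signs.

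The arrays also differed by region in control probe sets that read both ends of a transcript. For beta-actin the ratio of the 5′ to the 3′ index was 0.587 and 0.613 on the CPU arrays and 0.745 and 0.839 on the NA arrays, cocaine first. For GAPDH it was 0.691 and 0.729 in CPU and 0.838 and 0.972 in NA. The dim hexokinase controls went the other way, at 0.892 and 0.926 in CPU and 0.725 and 0.759 in NA. The beta-actin 5′ control thus stood at 19666 and 20924 in CPU and 31732 and 31531 in NA, a log2 difference of -0.64, against -0.24 for its 3′ control. These values move with every regional difference described here, and their part in those differences was not tested.

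**Figure D2:**
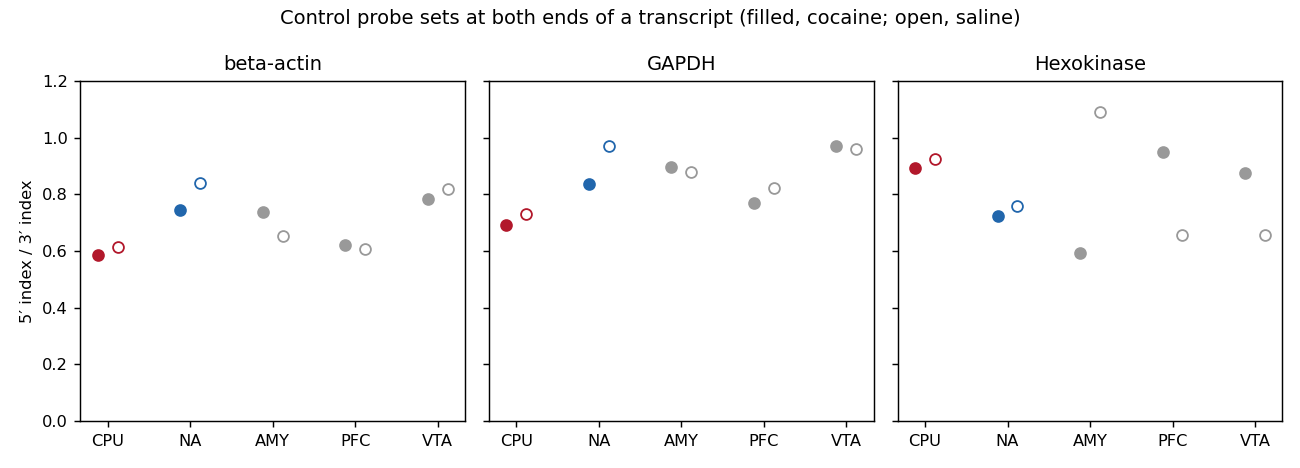
The ratio of the 5′ to the 3′ control index is shown for beta-actin, GAPDH and hexokinase on all 10 arrays, with CPU in red, NA in blue and the other regions in grey. For beta-actin and GAPDH both CPU points lie below both NA points, and for hexokinase above them.

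Genes of the spiny projection neurons were the clearest group higher in CPU. Of 20 tested members of a list of 30 such genes, 13 were higher in CPU and none higher in NA, with a median log2 difference of 0.42, beside 4.35% and 7.63% of the 3238 genes tested and a median of -0.03. The fit of all 10 arrays kept 5 of the 13 calls. Of 7 tested genes known to be richer in the dorsal striatum, 5 were higher in CPU. Those 5, Cnr1, Rgs9, Drd2, Adora2a and Rxrg, are also among the 13, so the counts overlap. Region labels were checked with Rgs9, Arpp21 and Adora2a, which were highest in CPU of all 5 regions, and with Cartpt and Gda, which were higher in NA than in CPU; these genes were known to differ when they were chosen. In bulk tissue, fewer cells of a type and less RNA per cell cannot be told apart.

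Cnr1, the cannabinoid receptor CB1 that curbs transmitter release, stood at 6665 with cocaine and 5880 with saline in CPU, and at 2165 and 2193 in NA. Both CPU arrays lay far above both NA arrays, a 2.87-fold difference (log2 1.52 ± 0.08, limma adjusted p = 1.18e-11, or 0.0997 in the fit of all 10 arrays). Rgs9, which speeds the shut-off of G proteins behind dopamine and opioid receptors, was 13031 and 13115 in CPU and 6124 and 5965 in NA, 2.16-fold higher (limma adjusted p = 1.71e-09). Its relative Rgs4 followed at 7926 and 7985 against 3878 and 4282, 1.95-fold. The 4 other tested RGS genes did not pass.

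Arpp21, a phosphoprotein of the dopamine and cyclic AMP pathway, was 16092 and 15635 in CPU and 7876 and 6260 in NA, 2.26-fold higher (limma adjusted p = 2.36e-09). A dimmer Arpp21 probe set, at 3682 and 4035 against 3491 and 3189, had a difference of 0.21 that did not pass. Rxrg, a retinoid receptor, was 8827 and 8696 in CPU and 4949 and 4747 in NA, 1.81-fold. Ppp1r1a, a phosphatase inhibitor controlled by protein kinase A, was 11754 and 10762 against 6430 and 7075, 1.67-fold.

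Markers of both output pathways were higher in CPU. Adora2a, the adenosine A2a receptor, was 11648 and 12524 in CPU and 6613 and 6902 in NA, 1.79-fold higher (limma adjusted p = 1.28e-07). Drd2, the dopamine receptor of the same neurons, was 4977 and 5405 against 3210 and 3419, 1.57-fold (limma adjusted p = 2.93e-06). Penk, the enkephalin precursor, was 27745 and 28595 against 20576 and 21566, 1.34-fold. On the direct pathway side, Drd1 was 10904 and 11001 against 8166 and 8237, 1.34-fold, and Tac1, the substance P precursor, 23885 and 22518 against 17045 and 17690, also 1.34-fold. A second, less abundant Tac1 set was 8708 and 10366 against 6101 and 6338, 1.53-fold. For none of these 5 genes did the arrays of the regions overlap, which also held for 54.4% of all tested probe sets. Penk was not called without the CPU saline array, nor Tac1 by its more abundant set without the CPU cocaine array, and of these 5 genes only Adora2a was called in the fit of all 10 arrays. Whether the difference is larger for one pathway than for the other was not tested.

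Other genes of the striatal dopamine system did not pass the test. Pdyn, the dynorphin precursor of the direct pathway, stood at 8489 and 9053 in CPU and 9132 and 9790 in NA, a log2 difference of -0.11 ± 0.08. Gnal, the G protein subunit that links striatal dopamine receptors to adenylyl cyclase, was 4737 and 5359 against 5016 and 5826, at -0.10. Pde1b, a calcium-regulated phosphodiesterase, was at 0.13. Drd3, a dopamine receptor known as an accumbens marker, stood at 4483 and 4816 in CPU and 4683 and 4577 in NA, and neither of its tested probe sets passed.

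The wider pathway of dopamine and cyclic AMP split between the regions. Of 37 tested members, 9 were higher in CPU and 5 higher in NA, with a median log2 difference of 0.05, beside 4.35% and 7.63% of all genes tested. In the fit of all 10 arrays 2 and 1 were called, and the count toward NA was 3 under median scaling, under quantile normalization and without the CPU cocaine array. Besides the genes above, Ptpn5, the striatal phosphatase STEP, was 20262 and 20050 in CPU and 13543 and 14058 in NA, 1.46-fold higher. Crem, a cyclic AMP-regulated transcription factor, was 6716 and 7308 against 4919 and 4500, 1.49-fold. Adcy5, the main striatal adenylyl cyclase, was 1.29-fold higher in CPU.

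The pathway members higher in NA included G protein and kinase subunits. Gnas, the stimulatory G protein subunit, was 21571 and 20590 in CPU and 40159 and 37955 in NA by its most abundant probe set, 1.85-fold lower in CPU, and its other 3 probe sets were called in the same direction. Prkar1b, a regulatory subunit of protein kinase A, was 11598 and 12006 against 18695 and 19982, 1.64-fold lower in CPU. For Prkacb, a catalytic subunit of that kinase, a dim probe set was 1.83-fold lower in CPU, while the abundant one, at 11855 and 13553 against 12732 and 15207, had a difference of -0.13 that did not pass. Adcy2, Gnai1 and Prkar1a were 1.25-fold to 1.32-fold higher in NA, but Adcy2 and Prkar1a were not called under either scaling, nor Gnai1 and Prkar1a without the CPU cocaine array, nor Prkar1a without the NA saline array.

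**Figure D3:**
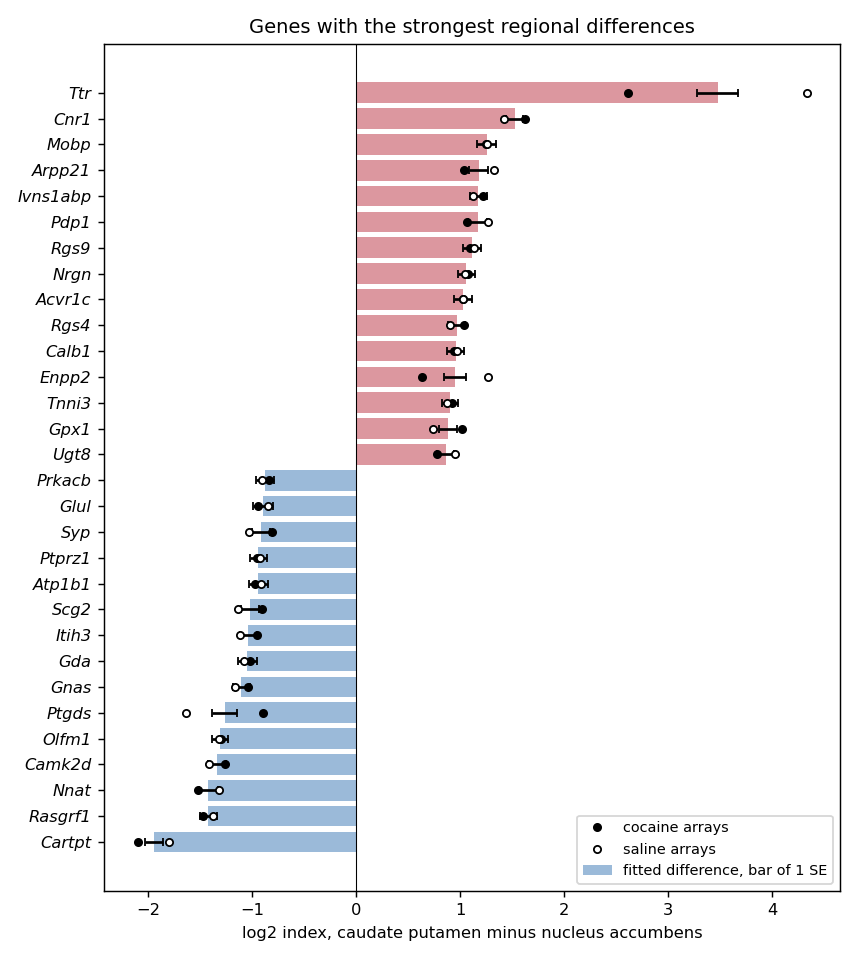
Bars show the fitted log2 difference between CPU and NA, with 1 standard error, for the 15 genes highest in CPU and the 15 highest in NA; filled and open points show the difference on the cocaine and the saline arrays. For most genes both points lie close to the bar, while Ttr, Enpp2 and Ptgds spread widely.

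Calcium signalling was also divided, with 9 of 43 tested members higher in CPU and 8 higher in NA. The shares of all genes tested were 4.35% and 7.63%. Calb1, a calcium buffer of the striatal matrix, was 6117 and 6867 in CPU and 3196 and 3499 in NA, 1.94-fold higher (limma adjusted p = 9.68e-09). Nrgn, a calmodulin-binding postsynaptic protein, was 31573 and 31242 against 19091 and 16794, 1.75-fold, and a second probe set was 2.08-fold higher. Atp2b1, a calcium pump of the plasma membrane, was 9357 and 11167 against 5664 and 5724, 1.80-fold. Itpr1, the calcium release channel of the endoplasmic reticulum, was 11617 and 11066 against 6808 and 7225, 1.62-fold.

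In the other direction, Rasgrf1, a calcium-activated exchange factor for Ras, was 2224 and 2830 in CPU and 6187 and 7340 in NA, 2.69-fold lower in CPU (limma adjusted p = 1.89e-11). Camk2d, a subunit of calcium/calmodulin kinase II, was 1170 and 1229 against 2816 and 3275, 2.53-fold lower, by the 1 tested of its 6 probe sets. Vsnl1, a neuronal calcium sensor, was 2768 and 2739 against 4540 and 4652, 1.67-fold lower. The count higher in NA was 4 under median scaling, under quantile normalization, without the CPU cocaine array and without the NA saline array. The count higher in CPU was 6 without the CPU cocaine array, and the fit of all 10 arrays called 3 higher in CPU and 2 higher in NA.

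Peptide genes were led by Cartpt, the precursor of CART, a peptide tied to feeding and reward. Cartpt stood at 1655 with cocaine and 2013 with saline in CPU and at 7116 and 6999 in NA. It was 3.87-fold lower in CPU (log2 -1.95 ± 0.09, limma adjusted p = 2.38e-13), the largest difference toward NA of any tested probe set, and also passed in the fit of all 10 arrays (adjusted p = 0.00947). Of the other regions only the VTA, at 6627 and 10588, was as high. Of 25 tested peptide and granin genes, 9 were higher in NA, and 2, Penk and Tac1, higher in CPU. Over all genes tested, 7.63% were higher in NA and 4.35% higher in CPU. Under median scaling and under quantile normalization 6 of the peptide and granin genes were higher in NA. In the fit of all 10 arrays, Cartpt alone of them passed.

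Among the granins, Scg2 and Chgb were higher in NA, while Scg3 (log2 -0.10) and Scg5 (0.12 and 0.19 by its probe sets) did not pass. Scg2, a granin packed into dense-core vesicles, was 2083 and 2038 in CPU and 3895 and 4481 in NA, 2.03-fold lower in CPU. Its relative Chgb was 2783 and 2972 against 4203 and 5907, 1.73-fold lower. Vgf, a neurotrophin-induced granule protein, was 6361 and 6576 against 8131 and 8087, 1.25-fold lower, but was not called without the CPU cocaine array or under either scaling. Cck, the cholecystokinin precursor, was 7238 and 5707 in CPU and 11048 and 11180 in NA, 1.73-fold lower.

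The promoters of Cartpt, Scg2 and Vgf all hold the cyclic AMP response element, the palindrome TGACGTCA. No match was found for the other peptide and granin genes called higher in NA, such as Chgb, Cck and Sst. Whether each of those had a promoter entry is not given here. The promoters below are shown because their genes were called higher in NA and hold the element. Each run is the 250 bases before the gene's first listed start in RefSeq (build GRCr8), 5′ to 3′ on the gene's strand, with the element in capitals. Cartpt lies at chr2:32991236-32991485 on the minus strand, Scg2 at chr9:88256867-88257116 on the minus strand and Vgf at chr12:25277021-25277270 on the minus strand.
Cartpt: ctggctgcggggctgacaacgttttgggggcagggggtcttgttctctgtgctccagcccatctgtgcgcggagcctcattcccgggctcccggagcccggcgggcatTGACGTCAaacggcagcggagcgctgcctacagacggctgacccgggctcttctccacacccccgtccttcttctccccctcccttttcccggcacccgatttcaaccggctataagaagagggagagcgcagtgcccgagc
Scg2: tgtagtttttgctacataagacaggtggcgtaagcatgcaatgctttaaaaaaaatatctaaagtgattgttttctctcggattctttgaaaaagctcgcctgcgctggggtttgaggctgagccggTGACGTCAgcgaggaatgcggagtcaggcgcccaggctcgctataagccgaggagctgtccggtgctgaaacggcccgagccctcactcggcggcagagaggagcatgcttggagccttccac
Vgf: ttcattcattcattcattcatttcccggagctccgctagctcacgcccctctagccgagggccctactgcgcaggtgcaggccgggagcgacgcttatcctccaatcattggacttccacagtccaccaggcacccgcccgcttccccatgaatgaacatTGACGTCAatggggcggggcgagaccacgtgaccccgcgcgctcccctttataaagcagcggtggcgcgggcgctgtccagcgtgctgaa
The element begins 142 bases before the start of Cartpt, 123 before that of Scg2 and 90 before that of Vgf. The same letters, read on both strands, occurred in 16 of 273 promoters of genes called higher in NA (5.86%) and in 3 of 135 promoters of genes called higher in CPU (2.22%). They occurred in 66 of the 2639 promoters of tested genes (2.50%) and in 531 of 33469 in the whole table (1.59%). Among the other genes higher in NA with the element were Syn1, Ptprs, Ywhah and Mdh2. A match describes the letters in this window only, and no binding was measured.

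Of 7 tested genes known to be richer in the ventral striatum, 3 were higher in NA and none in CPU: Cartpt, Nnat and Htr2c. These counts stand beside 7.63% of all genes tested higher in NA and 4.35% higher in CPU. Nnat, a small membrane protein from an imprinted gene, was 8901 and 10373 in CPU and 25663 and 25926 in NA, 2.68-fold lower in CPU (limma adjusted p = 1.63e-10). Htr2c, the serotonin 2C receptor, was 1764 and 1897 against 2521 and 2546, 1.39-fold lower. Gda, guanine deaminase and an accumbens marker chosen with its value known, was 11443 and 11013 against 23242 and 23236, 2.07-fold lower in CPU. Amygdala arrays held Gda at 22798 and 24751, close to NA.

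Calls among genes of interneurons and of GABA synthesis and reception were all toward NA, against 7.63% of all genes tested. Of 15 tested interneuron genes, 7 were higher in NA and none in CPU, with a median of -0.23, and of 16 genes of GABA synthesis and reception 6 were higher in NA and none in CPU. Gad1, Gad2 and Slc32a1, all called, stand in both lists, so the counts overlap. Gad1, the main GABA-making enzyme, was 10191 and 9870 in CPU and 14662 and 17435 in NA, 1.59-fold lower in CPU. Slc32a1, which loads GABA into vesicles, was 5173 and 5288 against 6687 and 8205, 1.42-fold lower. The receptor subunit Gabbr2 was 2928 and 3098 against 4133 and 4237, 1.39-fold lower. Without the CPU cocaine array 3 of the 6 GABA genes were called, under either scaling 4, and in the fit of all 10 arrays no gene of either list.

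Among the interneuron peptides, Sst, somatostatin, was 7625 and 6981 in CPU and 9343 and 11875 in NA, 1.44-fold lower in CPU, a call lost under both scalings. Tac3, a tachykinin precursor, was 2769 and 2983 against 3987 and 4138, 1.41-fold lower. Npy, neuropeptide Y of the somatostatin cells, stood at 4890 and 4782 in CPU and 5404 and 5775 in NA, and Calb2, calretinin, at 2445 and 2604 against 2948 and 2984; neither passed. Gad1 and Slc32a1 are also used by projection neurons.

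Of 30 tested genes of the synaptic vesicle and its release, 13 were higher in NA and 1, Sv2b, higher in CPU, beside 7.63% and 4.35% of all genes tested. The median of the list was -0.08, and 10 members had a positive difference. The calls toward NA and CPU numbered 9 and none under median scaling, 10 and none under quantile normalization, and 2 and none in the fit of all 10 arrays. Syp, synaptophysin of the vesicle membrane, was 7594 and 7618 in CPU and 13285 and 15572 in NA, 1.89-fold lower in CPU (limma adjusted p = 7.13e-08). Rab3a, a vesicle GTPase, was 5438 and 5756 against 8364 and 10592, 1.68-fold lower. Vamp2, synaptobrevin of the fusion machinery, was 11279 and 11162 against 15996 and 19225, 1.56-fold lower, and Dnm1, the dynamin that pinches off endocytic vesicles, 6120 and 6014 against 9589 and 9666, 1.59-fold lower.

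Snap25, their partner in fusion, differed by probe set. The abundant set stood at 19725 and 20783 in CPU and 18826 and 19722 in NA, a log2 difference of 0.07 that did not pass. A dim set was 1476 and 1714 against 2804 and 2968, 1.81-fold lower in CPU. Among 192 genes named by the rule for this comparison, 98 had several tested probe sets; in 21 of these all were called in the same direction, in 25 the signs differed, and in none were sets called in opposite directions.

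Calls in the cytoskeleton and adhesion list were nearly all toward NA. Of 39 tested members, 19 were higher in NA and 1, the scaffold Homer1, higher in CPU, with a median of -0.23. Over all genes tested, 7.63% were higher in NA and 4.35% higher in CPU, with a median of -0.03. The number higher in NA was 10 under median scaling, 9 under quantile normalization, 10 without the CPU cocaine array, 11 without the CPU saline array and 1 in the fit of all 10 arrays. Ncam1, a neural adhesion molecule, was 3469 and 3509 in CPU and 5554 and 5749 in NA, 1.62-fold lower in CPU. Map1a, which binds microtubules, was 7462 and 8024 against 11505 and 13395, 1.60-fold lower, and Map2 of dendrites 8491 and 8229 against 12139 and 11462, 1.41-fold lower. Olfm1, a secreted neuronal protein, was 2586 and 2470 against 6390 and 6172 by 1 probe set, 2.49-fold lower. Beside these values stands the lower 5′ to 3′ ratio of beta-actin on the CPU arrays given above.

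Homer1, a scaffold of the postsynaptic density with short and long transcripts, stood at 5934 and 6108 in CPU and 3789 and 4115 in NA by its most abundant probe set, 1.52-fold higher in CPU. All 4 of its tested probe sets were called in that direction. The weakest, at 3303 and 2160 against 2484 and 1921, rested on the CPU cocaine array, without which its difference was -0.016.

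Receptors for glutamate and for most transmitters differed little. Of 20 tested glutamate receptor genes, Grm3 was higher in CPU and Gria1 higher in NA. That is near the shares of all genes tested, 4.35% and 7.63%. Gria2, an AMPA receptor subunit, stood at 6768 and 7767 in CPU and 7439 and 7741 in NA. Of 30 tested receptors for peptides, opioids and monoamines, Cnr1 and Htr2c were the only ones called. Among 33 ion channel genes, 2 potassium channel genes were called, Kcnab1 at 1.32-fold and Kcna1 at 1.25-fold higher in CPU, and neither was called without the CPU saline array. Of 17 immediate early genes, Homer1 was higher in CPU and Egr1 1.24-fold higher in NA, while Fos, at 8658 and 8149 against 8480 and 9752, did not pass.

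**Figure D4:**
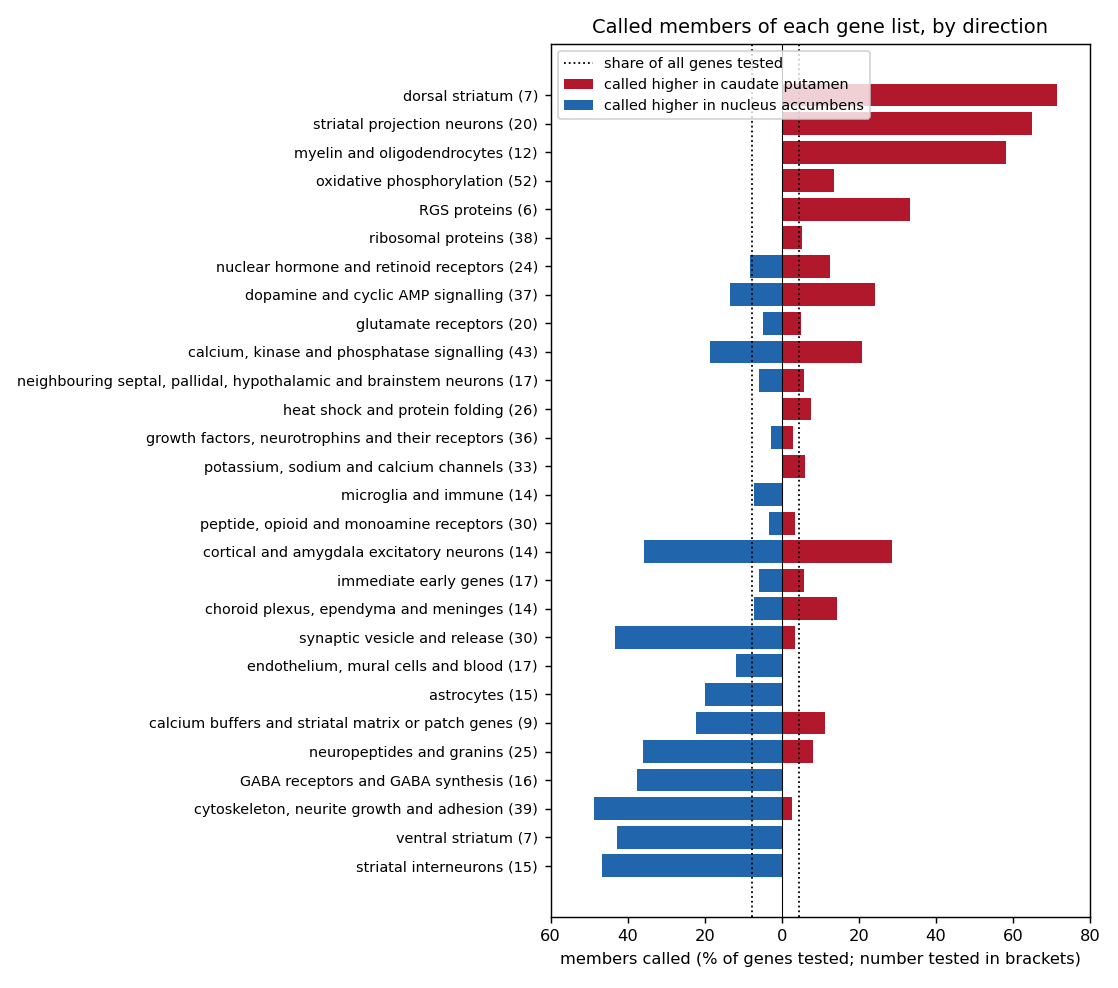
Bars show, for each of the 28 gene lists, the percentage of tested members called higher in CPU (to the right) and higher in NA (to the left), ordered by median difference, with the share of all genes tested as dotted lines. Dorsal striatum, projection neuron and myelin lists reach farthest to the right, and cytoskeleton, interneuron, vesicle, ventral striatum and GABA lists to the left.

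Genes of myelin, the sheath that oligodendrocytes lay around axons, were higher in CPU. Of 12 tested members, 7 were higher in CPU and none in NA, with a median of 0.34. The shares of all genes tested were 4.35% and 7.63%, with a median of -0.03. Mobp, a protein of compact myelin, was 32167 and 34779 in CPU and 18866 and 17978 in NA, 1.82-fold higher by its most abundant set. Its 3 other sets were called in the same direction, up to 2.38-fold. The set at 2.38-fold was the only Mobp set also called in the fit of all 10 arrays (limma adjusted p = 0.0312). Ugt8, which makes the myelin lipid galactosylceramide, was 4852 and 5753 against 2834 and 2982, 1.82-fold. Cnp, an enzyme of myelinating cells, was 18425 and 19899 against 13078 and 14678, 1.38-fold. Mbp, myelin basic protein, was 45616 and 48824 against 40606 and 39110, a difference of 0.24 ± 0.11 that did not pass. The summed index of the list was 166350 and 180599 in CPU and 131338 and 133169 in NA. Without the CPU saline array 4 members were called, and none of these list members' representative sets was called in the fit of all 10 arrays.

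Markers of other cells moved less evenly. Of 15 tested astrocyte genes, 3 were higher in NA, namely Slc1a3, Clu and Glul, and the probe sets that stand for them in the list were not called under median scaling or without the CPU cocaine array. Glul, the astrocyte enzyme that makes glutamine, was 24638 and 24753 in CPU and 33946 and 32066 in NA by its most abundant set, 1.34-fold lower in CPU. Its 3 other sets were 1.54-fold, 1.66-fold and 1.86-fold lower in CPU and kept their calls under both scalings and without any 1 of the 4 arrays. Sparc and Aldoc, also in the list, had 3 of 4 and 1 of 2 tested sets called higher in NA. Those sets kept their calls in the same settings, but none passed in the fit of all 10 arrays. The uncalled Sparc set was positive. Apoe, a lipid carrier of astrocytes, stood at 37470 and 39652 in CPU and 42564 and 37955 in NA. Of 14 microglial and 17 vascular and blood genes, 1 and 2 were higher in NA (7.14% and 11.8%) and none in CPU. Over all genes tested, 7.63% were higher in NA and 4.35% higher in CPU. Hbb of red cells stood at 31552 and 35276 in CPU and 33177 and 32297 in NA.

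Genes of the choroid plexus and meninges differed between single arrays. Ttr, transthyretin of the choroid plexus, stood at 11221 with cocaine and 34312 with saline in CPU and at 1832 and 1700 in NA, an 11.1-fold difference (log2 3.47 ± 0.20, limma adjusted p = 2.04e-11). The CPU arrays lay far apart, both above NA, and a second Ttr probe set was listed at 0 on both of them. Enpp2, made by choroid plexus and by oligodendrocytes, followed at 5392 and 8860 against 3625 and 3744. Ptgds, the prostaglandin D synthase of meninges and oligodendrocytes, ran the other way, at 6968 and 9016 in CPU and 12944 and 28155 in NA, 2.41-fold lower in CPU. The other 11 tested genes of the list did not pass by the probe set that stands for them. Of 4 tested Igf2 sets, 1 was called higher in NA (log2 -0.46), while 2 of the 4 were positive. The shares of all genes tested were 4.35% higher in CPU and 7.63% higher in NA. The summed index of the list was 69464 and 98331 in CPU and 66327 and 80222 in NA. The part of such tissue in these differences was not tested.

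Markers of neighbouring cortical neurons were mixed. Among genes that mark excitatory neurons of cortex and amygdala, 4 of 14 tested were higher in CPU, led by Rgs4 and Nrgn, and 5 higher in NA, led by Rasgrf1 and Gda. Their summed index was 97647 and 96149 in CPU and 103145 and 102016 in NA. Of 17 genes of septal, pallidal, hypothalamic and brainstem neurons, 1 passed in each direction. Both lists stand beside 4.35% of all genes tested higher in CPU and 7.63% higher in NA.

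Genes of the respiratory chain leaned toward CPU. Of 52 tested members, 7 were higher in CPU and none in NA, with 39 positive differences and a median of 0.13. Over all 3238 genes tested, 1367 differences were positive and the median was -0.03, with 4.35% called higher in CPU and 7.63% higher in NA. Ndufs4, of complex I, was 6415 and 7381 in CPU and 4538 and 4955 in NA, 1.45-fold higher, and Cox7b, of complex IV, 9303 and 10613 against 7583 and 7754, 1.30-fold. The count was 2 under median scaling, 1 without the CPU saline array and none in the fit of all 10 arrays. Of 38 ribosomal protein genes 2 were called, both higher in CPU, a share near the 4.35% of all genes, and none under median scaling or without the CPU saline array. The ribosomal genes leaned the same way as the respiratory chain, with 30 positive differences and a median of 0.08.

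Several of the strongest differences lay outside these lists. Higher in CPU were Ivns1abp, an actin-binding protein, at 5233 and 5448 against 2245 and 2495, 2.26-fold, and Pdp1, the phosphatase that activates pyruvate dehydrogenase, at 2398 and 2691 against 1144 and 1119, 2.25-fold. Acvr1c, the activin receptor ALK7, was 3053 and 3123 against 1500 and 1534, 2.04-fold, and Gpx1, which removes peroxide, 10172 and 10737 against 5020 and 6428, 1.84-fold by 1 set and 1.31-fold by another. Higher in NA were Itih3, a protein that stabilises the extracellular matrix, at 4266 and 4669 against 8296 and 10131, 2.05-fold, and Ptprz1, a receptor phosphatase, at 1573 and 1686 against 3060 and 3200, 1.92-fold. Atp1b1, a subunit of the sodium pump, was 12787 and 14270 in CPU and 25077 and 26978 in NA, 1.93-fold lower in CPU, with its other 2 sets called in the same direction. The probe set rc_AA894210_at, which has no gene name here, was 4503 and 4740 in CPU and 15890 and 18972 in NA, 3.76-fold lower in CPU.

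Among the 5 regions, CPU was more often the extreme than NA in the called probe sets. Of the 244 probe sets higher in CPU, CPU was the highest region in 162 and NA the lowest in 43. Of 460 higher in NA with a value in every region, CPU was the lowest region in 318 and NA the highest in 123. These sets were picked for a difference between CPU and NA on the same arrays, which favours such extremes. Over 5209 tested probe sets, CPU was highest in 802 and lowest in 1510, and NA was highest in 776 and lowest in 761. By the count of probe sets at least 1.5-fold apart in both treatments, CPU and NA (94, or 1.08%) stood closer than CPU and VTA (325, or 3.80%), and NA and AMY (45, or 0.524%) had fewer still. These counts share arrays, and they fall where the arrays of a region differ from each other, so no order of likeness was tested.

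**Figure D5:**
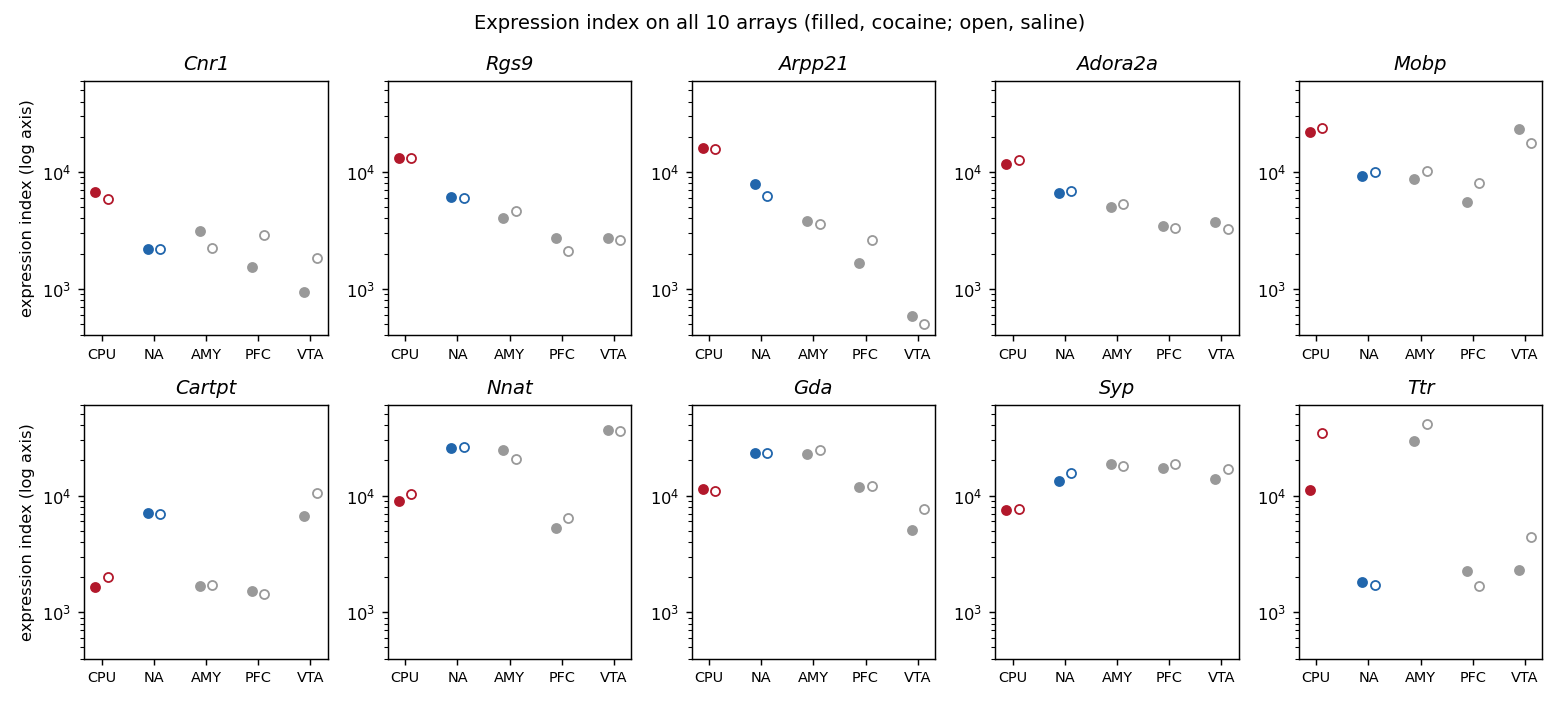
The expression index (log axis) of 10 genes is shown on all 10 arrays, with CPU in red, NA in blue, other regions in grey, cocaine filled and saline open. Rgs9, Arpp21 and Adora2a are highest in CPU and next highest in NA, Cartpt is high in NA and VTA, and Ttr is high in AMY and CPU.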

How the data were processed

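Total RNA of 5 rat brain regions was measured on 1-colour oligonucleotide arrays. The deposited intensity values are, per the labels, the authors' dChip expression index; which dChip version and model made it, and how arrays were scaled, is not given in the sources used. Array medians lay between 2208 and 2309. From these, exact zeros (56 on the 4 striatal arrays, in 51 probe sets) were taken as missing, an index below 1023, the 20th percentile of non-zero values, was set to that floor, and log2 was taken with no further normalization. The test took probe sets measured on all 4 arrays whose mean index lay in the upper 60%, with limma 3.58.1 in R 4.3.3, with region and treatment as terms and an intensity trend; the script was tested on simulated data. The mean index covers both regions, so a probe set low in 1 region could pass through high values in the other. Of 8740 non-control probe sets, 7006 had 1 gene symbol, 308 several and 1426 none. In a list, a gene stands for its tested probe set with the highest mean index.

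Members, lists and alternatives were chosen with earlier results of these data known. Named were the 15 genes furthest in each direction with the same sign in both treatments, 5 markers, up to 4 called genes per list and direction, up to 4 others of high index, and all their probe sets. Drd1, Ptpn5, Vgf, Adcy5, Pdyn, the 5′ and 3′ controls and the unnamed probe set were chosen after their values were seen. Alternatives covered the arrays that give the spread, the treatment term, zeros, floor, filter, scaling, trend and each array left out; array weights, robust empirical Bayes and dropping filter and floor together were added after seeing the data. Precision is limited by there being so few arrays.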

Additional observations from a re-analysis of the deposited data

Results flagged for a closer look

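Flg, filaggrin of the skin barrier, was called higher in NA although its difference between the regions had opposite signs in the treatments, -1.61 on the cocaine arrays and 0.056 on the saline arrays (log2, CPU minus NA). The low value was that of the CPU cocaine array, 2003, against 6093 on the CPU saline array and 6109 and 5862 in NA. With 1 array per region and treatment, the difference between the treatments was not tested.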

How the results depend on the processing

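Against 705 calls, 46 were made in the fit of all 10 arrays, 348 under median scaling and 397 under quantile normalization, of which 46, 348 and 375 were among the 705. Without a filter on mean index limma made 0 calls, where raised values give probe sets without spread (1112 had an unadjusted p under 0.05), and 680 with filter and floor both dropped. Leaving out 1 array gave 379 to 874 calls, the fewest without the CPU saline array. In every other setting run the count stayed within 1.5 times the main one, and no setting called a probe set in the opposite direction. The share higher in CPU was 34.6%, against 42.2% under median scaling, 42.3% under quantile normalization and 24.5% without the CPU saline array. The count of 94 at 1.5-fold in both treatments was 84 to 115 under the other floors and scalings and 19 at 2-fold. Of 200 called probe sets of the lists and named genes, 29 were called in the fit of all 10 arrays, 127 under median scaling, 142 under quantile normalization and 157 of 196 in a fit of all 10 arrays with array weights. Signs turned for the weakest Homer1 set and for uncalled genes, with these ranges when 1 array was left out: Homer1 -0.016 to 0.60, Gnal -0.21 to 0.0064, Drd3 -0.046 to 0.057, Hbb -0.053 to 0.11, Apoe -0.14 to 0.022 and Gria2 -0.16 to 0.034. Hbb was also at -0.023 under quantile normalization, and the cause was not tested. The fit already pairs the regions by treatment; without the treatment term 505 probe sets were called.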

Other observations

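Some gene groups outside the lists also leaned one way; they were picked after their values were seen, so their counts are a description only, beside 4.35% of all genes called higher in CPU and 7.63% higher in NA. Of 8 tested genes of the vacuolar proton pump, which acidifies vesicles and lysosomes, 5 were higher in NA and none in CPU. Atp6v1b2, of its catalytic head, was 4042 and 4724 in CPU and 6090 and 8462 in NA, 1.64-fold lower in CPU. Of 6 tested 14-3-3 adaptor genes 4 were higher in NA, led by Ywhah at 1.57-fold, but 1 under median scaling, without the CPU cocaine array and without the NA saline array, and 2 under quantile normalization and without the CPU saline array. App, the amyloid precursor, and its relative Aplp2 were 1.52-fold and 1.36-fold higher in NA. Of 11 tested glycolysis genes 3 were higher in NA, with Aldoa at 1.63-fold, but 1 without the CPU saline array and 6 without the NA cocaine array. In the other direction, 5 of 22 tested genes of peroxide and glutathione enzymes were higher in CPU, led by Gpx1, and none in NA, but limma called none of the 22 without the CPU saline array. In the fit of all 10 arrays, 1 gene of these groups, a 14-3-3 gene, was called.

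The spiked-in controls, 9 probe sets in all, were each lowest of the 4 arrays on the NA saline array. BioB read at its 5′ end was 7031 there, against 10254, 12171 and 13239 on the CPU cocaine, CPU saline and NA cocaine arrays, and CreX read at its 5′ end was 47779, against 53968, 55799 and 56331.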
